A study of Mus musculus with 13 samples.

Results

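The aorta of mice given β-aminopropionitrile (BAPN) alone was compared with that of mice given plain water, the vehicle, by RNA sequencing. The question was how BAPN by itself changes gene expression, in a series that also includes fasudil, an inhibitor of the kinases encoded by Rock1 and Rock2. BAPN mice drank water with 0.25% BAPN, and the experiment ran for 4 weeks after 1 week of acclimatisation. The arms held 12 BAPN and 11 vehicle mice, and 3 BAPN and 4 vehicle libraries were listed. Fasudil mice received 150 mg/kg/day, and mice of the combined group had BAPN for 1 week before fasudil was added to it, with 3 libraries each. Strain, sex, age and the animals behind each library are not given in the labels, so p-values measure the spread between these libraries, which may be technical. The BAPN titles share 1 leading number and differ in the last, unlike those of the other groups, so whether the 3 BAPN samples are separate animals is uncertain. The comparison used 7 of the 13 libraries and the 13101 of 28510 genes with at least 1 FPKM in 2 or more of those 7.

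The deposited column of BAPN replicate 2 equals replicate 1 plus 1 FPKM in all 28510 genes and is no replicate. That library was recovered as 3 times the deposited BAPN mean minus replicates 1 and 3, with 0 where the result fell below 0 (2040 genes, lowest -0.002 FPKM). In all 28510 genes, exactly 1 value with 2 decimals fits the deposited mean. Every BAPN value of replicate 2 below is such a recovered value. Levels are scaled FPKM, which is normalised to transcript length and library size. Values of a gene are listed in replicate order, BAPN 1 to 3 and vehicle 1 to 4.

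BAPN blocks the lysyl oxidases, copper enzymes that crosslink collagen and elastin outside the cell. Elastin and collagen carry the load of the aortic wall, and BAPN is used in rodents to weaken it. The thoracic aorta of mice lies in perivascular fat of the brown type, which burns fatty acids in mitochondria and expresses Ucp1. Resident macrophages sit in the outer layer of the wall and in that fat, and express Mrc1, Folr2 and the C1q genes.

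Among the genes that rose with BAPN were Lox, Col1a1, Col8a1 and Thbs1 of the matrix and 7 of 18 macrophage markers, and among those that fell were 5 of 13 brown adipocyte markers and 5 of 24 peroxisome genes. Limma's moderated test called 236 genes changed (1.8% of those tested), of which 99 were higher (0.756%) and 137 lower (1.05%) with BAPN. Without scaling between libraries the split was 3869 higher and 387 lower, with the median log2 fold change (log2FC) of all genes moved from 0.002 to 0.426. In all 236 called genes the BAPN and vehicle libraries did not overlap. Over all tested genes 27.9% did not overlap, 12.0% with BAPN higher and 15.9% with BAPN lower, and 4123 had an unadjusted p under 0.05. The median log2FC was 1.09 among genes that rose and -1.19 among genes that fell.

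The calls lay close to the threshold, with limma's adjusted p from 0.0306 upward, and depended on which libraries were included. Leaving out any 1 of the 4 vehicle libraries, or the recovered BAPN 2, left 0 called genes, with between 2551 and 3879 genes at an unadjusted p under 0.05. Without BAPN 1 there were 2 calls, Ehhadh (log2FC -2.23 ± 0.16, SE, limma's adjusted p = 0.0366) and the immunoglobulin segment Ighj1, chosen after its values were seen. Without BAPN 3 there were 1394 higher and 1922 lower calls, which included all 236. Each called gene that could be tested kept its direction whichever library was left out, but groups without overlap all but fix this in advance. The medians then ranged from 1.00 to 1.19 for genes that rose and from -1.30 to -1.06 for genes that fell.

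**Figure D1:**
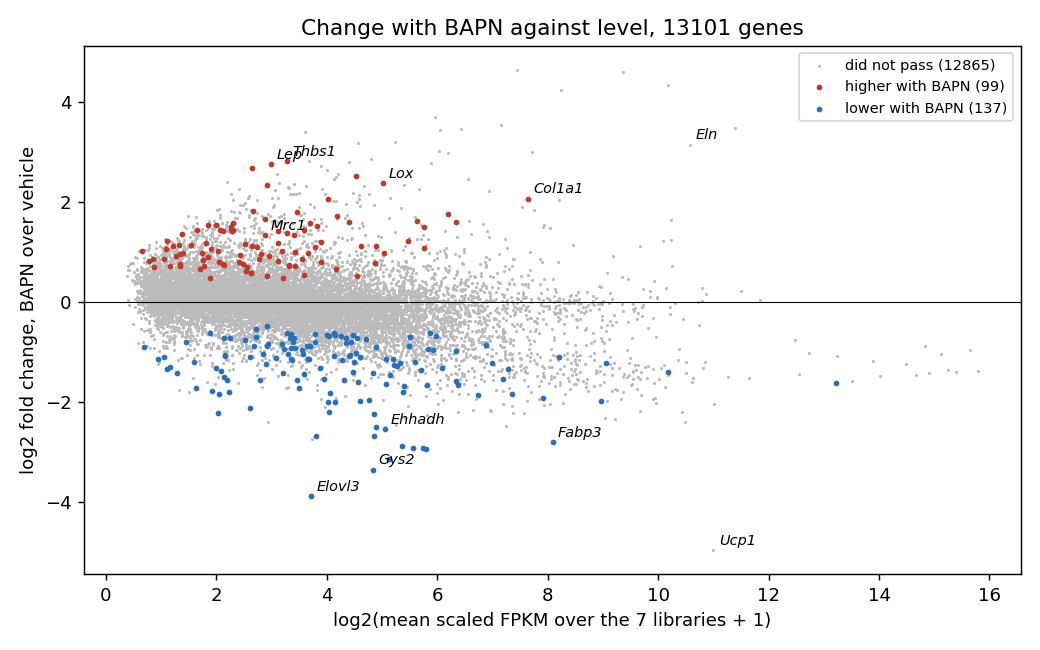
Each point is 1 of 13101 genes, with its mean level on the x axis (log2 of scaled FPKM plus 1) and its log2 fold change of BAPN over vehicle on the y axis. The 99 genes called higher (red) and 137 called lower (blue) spread over most levels, while Eln and Ucp1 lie farther from 0 than most called genes and did not pass.

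The libraries differed within groups, and some measures also split by group. Estimated depth was 20.45 to 20.95 megareads (reads in units of 1e+06) in each of the 7. BAPN 1 had 118 genes more than 4-fold above all the other 6 libraries, 48 of them immunoglobulin genes and others sympathetic nerve genes such as Th and Dbh. Immunoglobulin genes took 10.5% of its FPKM and at most 0.0234% elsewhere. Vehicle 3 had 41 such genes, led by the airway genes Scgb1a1 and Bpifa1, and each other library had at most 1. Genes of the mitochondrial chromosome took 23.7%, 36.0% and 42.8% of FPKM in BAPN 1, 2 and 3, and 43.6% to 53.3% in vehicle. This share split by group, and so did the scaling factors, at 1.08 to 1.39 with BAPN and 0.76 to 0.96 with vehicle. BAPN 3 was the BAPN library nearest to the vehicle mean in 7971 of 13101 genes and in 176 of the 236 called. The part of these differences in the results below was not tested.

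Of the lysyl oxidase genes, whose products BAPN inhibits, Lox rose and the others did not pass. Lox (ENSMUSG00000024529.15, chromosome 18, 52649139 to 52662939, GRCm39) stood at 94.6, 58.7 and 26.8 with BAPN and at 9.65, 12.9, 10.4 and 5.96 with vehicle. The lowest BAPN library lay above the highest vehicle library, and the spread among BAPN libraries was wide. Its mean was 60.0 ± 33.9 (SD, n = 3) against 9.73 ± 2.86 (SD, n = 4), a log2FC of 2.38 ± 0.42 (SE, limma's adjusted p = 0.0484). Loxl2 stood at 9.28, 6.84 and 4.77 with BAPN and at 2.27, 3.21, 3.08 and 1.75 with vehicle, without overlap, and did not pass (log2FC 1.14 ± 0.23, limma's adjusted p = 0.0534). Loxl1 (0.85 ± 0.33) and Loxl3 (1.06 ± 0.31) overlapped between groups and did not pass, and Loxl4 was below the level filter. Of the 14 tested genes for lysyl oxidases and other collagen-modifying enzymes, 1 was called higher and 0 lower, 6 did not overlap with BAPN higher, and the median log2FC was 0.80.

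Elastin, the substrate whose crosslinking BAPN prevents, had the largest log2FC of the elastic fibre genes tested but did not pass. Eln (ENSMUSG00000029675.13, chromosome 5, 134731447 to 134776177) stood at 5195, 3377 and 946 with BAPN and at 303, 425, 363 and 144 with vehicle. All BAPN libraries lay above all vehicle libraries, with BAPN 3 far below the other BAPN libraries. Its log2FC was 3.15 ± 0.63 (SE), with limma's adjusted p = 0.0512. It ranged from 2.66 to 3.90 over the libraries left out in turn, and only without BAPN 3 did it pass. Ltbp2, which binds fibrillin and elastic fibre proteins, was the 1 called gene of 16 tested for elastic fibres. It stood at 64.7, 79.5 and 51.5 with BAPN and at 32.4, 21.7, 24.6 and 30.4 with vehicle (log2FC 1.22 ± 0.20, limma's adjusted p = 0.0465). The fibrillin gene Fbn1 (1.57 ± 0.31) and the elastin-binding fibulin gene Fbln5 (1.62 ± 0.41), chosen after their values were seen, did not overlap and did not pass. The median of the 16 was 0.82, and it was 0.74 without BAPN 1.

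Among collagens, 3 of 19 tested genes rose and none fell, 13 did not overlap with BAPN higher, and the median log2FC was 1.09. Col1a1, a chain of the main fibrillar collagen, stood at 451, 389 and 219 with BAPN and at 77.2, 132, 79.4 and 50.4 with vehicle. Every BAPN library exceeded every vehicle library, and the log2FC was 2.07 ± 0.37 (limma's adjusted p = 0.0494). Col8a1, a short-chain collagen of vessel walls, stood at 14.4, 17.9 and 7.07 against 1.94, 1.81, 1.31 and 1.45. That was 8.07-fold higher in means, with a log2FC of 2.35 ± 0.28 (limma's adjusted p = 0.0401). Col5a3, a chain of the collagen that regulates fibril width, was even across vehicle (3.19 to 3.52) and stood at 10.8, 9.05 and 6.19 with BAPN. Its log2FC was 1.11 ± 0.17 (limma's adjusted p = 0.0465). Col3a1, the other main fibrillar collagen of vessels, had a log2FC of 2.04 ± 0.38 without overlap and missed the threshold.

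**Figure D2:**
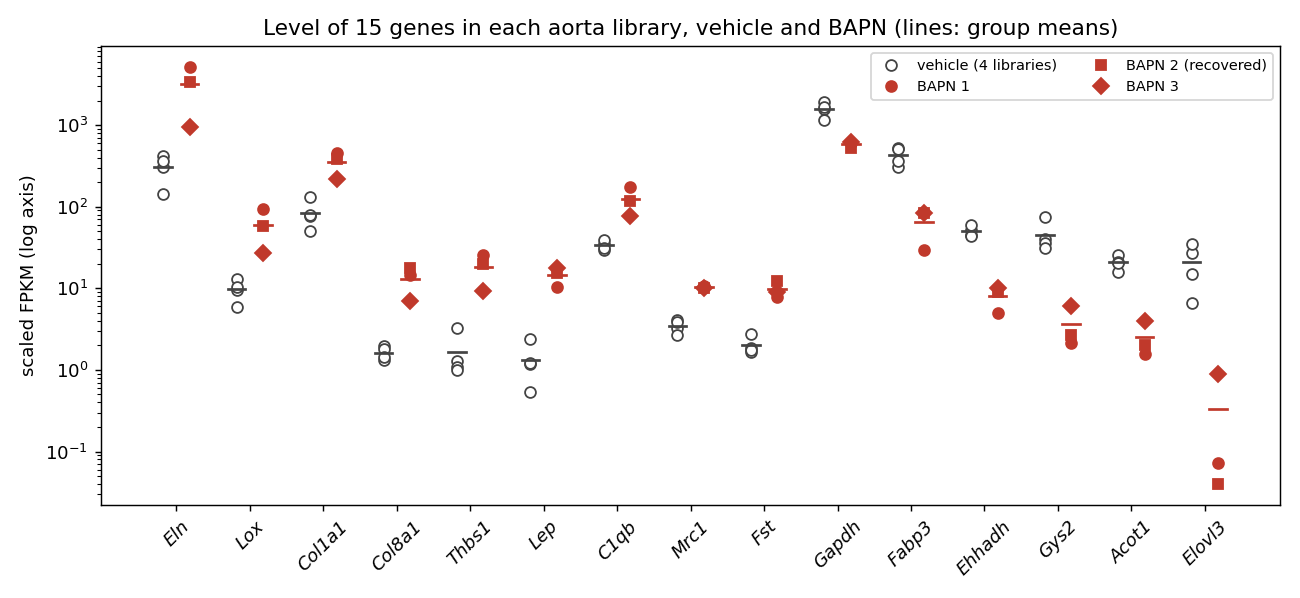
Scaled FPKM (log axis) of 15 genes in each library, with vehicle as open circles, BAPN as filled symbols and group means as lines. For each of the 15 genes the BAPN libraries lie wholly above or wholly below the vehicle libraries, and Eln spans 946 to 5195 within BAPN.

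Among other secreted matrix proteins, Thbs1, which encodes thrombospondin-1, an activator of latent TGF-beta, stood at 25.5, 19.7 and 9.27 with BAPN. With vehicle it stood at 1.29, 1.09, 3.27 and 1.01. The groups were far apart although vehicle 3 was high for its group, and the log2FC of 2.81 ± 0.39 was the highest of all called genes (limma's adjusted p = 0.0465). It was 1 of 21 tested proteoglycans and glycoproteins that rose. None fell, 12 did not overlap with BAPN higher, and the median was 1.26. Spp1, which encodes osteopontin and was chosen after its values were seen, stood at 49, 23.2 and 3.53 against 0.407, 0.668, 1.76 and 0.194, without overlap. It did not pass (log2FC 3.40 ± 0.76, limma's adjusted p = 0.0571).

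Cthrc1, a secreted protein described in injured rat arteries, stood at 18, 11.1 and 4.98 with BAPN and at 0.555 to 0.959 with vehicle. It was below 1 in every vehicle library, and its log2FC was 2.68 ± 0.36 (limma's adjusted p = 0.0465). Cpxm2, of the carboxypeptidase X family, had a log2FC of 2.06 ± 0.37. Itga11, a collagen-binding integrin subunit, the basement membrane gene Nid1, Cpz and Fndc1 were also called higher, and all 4 were chosen after their values were seen. Nid1 stood at 29.9, 41.3 and 32.5 against 15.4, 17.4, 13.8 and 14.6, a tight rise of 1.12 ± 0.14 on the log2 scale (limma's adjusted p = 0.0401).

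Of 27 tested matrix proteases and inhibitors 1 was called higher, Mmp2, the gelatinase of fibroblasts and smooth muscle. It stood at 93.9, 94.9 and 65.5 with BAPN and at 28.5, 41.7, 28.2 and 21.2 with vehicle (log2FC 1.49 ± 0.24, limma's adjusted p = 0.0465). BAPN 1 and 2 were nearly equal, and all BAPN libraries were above vehicle. Timp1, an inhibitor of these proteases chosen after its values were seen, stood at 77.5, 31.5 and 13.8 against 5.08, 9.58, 7.01 and 4.70 and did not pass (2.19 ± 0.53). Serpina3n, a serine protease inhibitor of the acute phase, rose to 66.0, 41.8 and 22.2 from 3.89, 10.1, 6.17 and 5.33 (log2FC 2.52 ± 0.40, limma's adjusted p = 0.0465). Its close relatives in the same gene cluster may share reads with it.

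In TGF-beta and BMP signalling, 2 of 24 tested genes rose. Fst encodes follistatin, which binds activins, and stood at 7.87, 12.2 and 9.14 against 2.77, 1.65, 1.86 and 1.75. Its log2FC of 1.83 ± 0.18 shared the lowest adjusted p of all genes (limma, 0.0306). Bmp4, a ligand of the BMP receptors, stood at 41.7, 34.0 and 23.6 against 11.4, 13.3, 9.54 and 6.88 (1.59 ± 0.26, limma's adjusted p = 0.0465). For both genes the groups were apart. Tgfb1 (0.57 ± 0.20), chosen after its values were seen, overlapped and did not pass.

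Contractile smooth muscle genes showed no calls. Of the 22 tested, 0 passed limma's test in either direction, 1 had an unadjusted p under 0.05 with BAPN higher and 1 with BAPN lower, and the median log2FC was 0.29. That median rested on single libraries, at 0.15 without BAPN 1, 0.13 without BAPN 2 and 0.69 without BAPN 3. Acta2 stood at 2423, 2469.9 and 1009 with BAPN and at 1581, 2447, 1744 and 753 with vehicle, so the groups overlapped. The summed level of the list was 3691 to 7812 with BAPN and 2893 to 8236 with vehicle. Des, for desmin, was the 1 gene without overlap, lower with BAPN (log2FC -0.98 ± 0.20, limma's adjusted p = 0.0523). Rock1 (0.27 ± 0.15) and Rock2 (0.39 ± 0.12) did not pass. Of 16 adventitial fibroblast markers 0 passed and 8 did not overlap with BAPN higher, 11 had an unadjusted p under 0.05, all with BAPN higher, and the median was 0.68. Of 18 endothelial markers 0 passed, 1 had an unadjusted p under 0.05, and the median was -0.05. In such whole-tissue samples, more cells of a type and more RNA per cell cannot be told apart.

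Of all lists counted, macrophage markers had the most called genes in either direction. Of 18 tested, 7 rose and none fell, which were Adgre1, C1qa, C1qb, C1qc, Csf1r, Mrc1 and Folr2. Another 6 did not overlap with BAPN higher, the median log2FC was 1.31, and it was 1.22 without BAPN 1. The summed level was 1123, 722.5 and 524.1 with BAPN and 218.5, 275.6, 674.8 and 225.5 with vehicle. Vehicle 3 overlapped the BAPN libraries there, with Lyz2 at 527 in that library, which airway and other cells also express.

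Mrc1, the mannose receptor of resident macrophages, stood at 10.8, 10.0 and 9.98 with BAPN and at 3.28, 4.09, 2.67 and 3.92 with vehicle (log2FC 1.34 ± 0.13, limma's adjusted p = 0.0306). BAPN libraries were nearly equal to each other and all above vehicle. Csf1r, the receptor for the growth factor that macrophages need, stood at 22.1, 20.7 and 17.1 against 5.78, 8.02, 5.38 and 5.10. Its log2FC was 1.58 ± 0.16 (limma's adjusted p = 0.0306). Adgre1, the F4/80 antigen, had a log2FC of 1.44 ± 0.16, and Folr2, a folate receptor of resident macrophages, had 1.00 ± 0.18. Cd163 (0.85 ± 0.29), Lyve1 (0.68 ± 0.38) and Mertk (0.30 ± 0.21), other genes of resident macrophages, overlapped between groups and did not pass.

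C1q, the recognition complex that starts the classical complement pathway, is built from 3 chains whose genes lie side by side on chromosome 4. All 3 rose by similar amounts. C1qb stood at 175, 117 and 76.9 with BAPN and at 35.1, 39.5, 29.3 and 31.2 with vehicle, a log2FC of 1.76 ± 0.27 (limma's adjusted p = 0.0465). C1qa rose by 1.61 ± 0.25 and C1qc by 1.63 ± 0.23 on the same scale. In each, BAPN 1 was highest and BAPN 3 lowest, and no library overlapped. Together with C1s1, the protease of that pathway (0.79 ± 0.12), and C5ar1, the receptor for the C5a fragment (1.15 ± 0.18), 5 of 15 tested complement genes rose and none fell, with a median of 0.85.

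Spi1 encodes PU.1, the transcription factor that macrophages depend on, and was chosen after its values were seen. It stood at 16, 11.3 and 6.35 with BAPN and at 2.67, 2.67, 2.27 and 3.06 with vehicle, a log2FC of 1.66 ± 0.27 (limma's adjusted p = 0.0465). Because Spi1 and macrophage genes rose in the same libraries, the promoters of called macrophage markers are shown with matches to a core that PU.1 binds, GAGGAA, on either strand. RefSeq promoters (GRCm38.p6) were given here for 4 of the 7, as the 250 bases before the RefSeq gene start, with matches in capitals (TTCCTC is the same core read on the other strand). Mrc1 lies on the plus strand at chr2:14229164-14229413, and the others lie on the minus strand, at chr4:136886201-136886450 for C1qb, chr4:136892915-136893164 for C1qc and chr7:101857191-101857440 for Folr2.
Mrc1: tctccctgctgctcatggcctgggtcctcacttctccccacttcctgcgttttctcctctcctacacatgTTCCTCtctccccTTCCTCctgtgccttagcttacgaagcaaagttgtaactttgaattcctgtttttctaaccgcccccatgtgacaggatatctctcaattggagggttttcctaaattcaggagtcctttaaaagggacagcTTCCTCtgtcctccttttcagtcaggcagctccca
C1qb: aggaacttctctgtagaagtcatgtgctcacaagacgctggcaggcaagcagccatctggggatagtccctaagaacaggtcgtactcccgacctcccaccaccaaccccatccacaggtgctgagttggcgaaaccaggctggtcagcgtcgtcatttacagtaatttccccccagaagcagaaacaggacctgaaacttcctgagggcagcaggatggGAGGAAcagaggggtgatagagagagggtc
C1qc: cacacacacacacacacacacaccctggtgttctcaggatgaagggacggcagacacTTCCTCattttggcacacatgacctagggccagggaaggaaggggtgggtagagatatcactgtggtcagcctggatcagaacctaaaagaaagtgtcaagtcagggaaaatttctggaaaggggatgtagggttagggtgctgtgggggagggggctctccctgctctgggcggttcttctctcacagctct
Folr2: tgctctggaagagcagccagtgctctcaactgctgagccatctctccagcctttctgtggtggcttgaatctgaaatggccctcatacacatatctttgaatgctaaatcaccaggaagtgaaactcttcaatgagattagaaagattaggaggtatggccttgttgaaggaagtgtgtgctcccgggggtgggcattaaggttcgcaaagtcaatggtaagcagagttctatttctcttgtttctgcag
Mrc1 held 3 matches, C1qb 1 and C1qc 1, and Folr2 had none in this window. RefSeq lists 2 starts for Folr2, of which 1 is shown, and the bases after the RefSeq start of C1qb were not found in a GENCODE M21 transcript of that gene. GAGGAA occurred in 23.1% of 27025 RefSeq promoters of this length, in 33.3% of the 72 called-higher genes with a promoter and in 15.9% of the 107 called-lower genes. Another motif searched on both strands, the nuclear receptor half-site AGGTCA, occurred in 13.8% of all these promoters, 16 of the 107 called-lower genes, 3 of the 72 called-higher genes and 0 of 5 called peroxisome genes. The motifs were chosen with these results known, and a match is a run of letters, not a binding site.

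Other called-higher genes of immune cells, named by the size of their change, were Pld4, which encodes a lysosomal nuclease, and Laptm5, a lysosomal membrane protein. Laptm5 was even across vehicle (7.16 to 7.90) and stood at 45.3, 27.3 and 17.0 with BAPN (log2FC 1.73 ± 0.29, limma's adjusted p = 0.0465). Pld4 stood at 28.3, 15.8 and 10.2 against 3.82, 4.90, 3.79 and 3.81 (1.80 ± 0.30). In both, BAPN 1 lay highest and no libraries overlapped. Fcgr3, Clec10a, Gpnmb, F13a1 and Alox5ap, chosen after their values were seen, were also called, with log2FC between 1.21 and 1.52. Of 21 cytokines and chemokines 1 rose, Ccl9 (1.19 ± 0.21, limma's adjusted p = 0.0483), 10 did not overlap with BAPN higher and 2 with BAPN lower.

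Markers of lymphocytes and other cells gave no calls, but their summed levels were uneven among BAPN libraries. For T and NK cells, 0 of 10 tested markers passed, with 4 at an unadjusted p under 0.05, and summed levels were 95.14, 22.8 and 9.892 with BAPN and 5.919 to 9.81 with vehicle. For B and plasma cells, 0 of 9 passed, 2 had an unadjusted p under 0.05, and summed levels were 28170, 161.4 and 135.4 against 82.09 to 147.2. For sympathetic neurons, 0 of 12 passed, 1 had an unadjusted p under 0.05, and sums were 1201, 138.9 and 23.44 against 15.56 to 73.75. Cardiomyocyte markers summed to 311.7, 421.2 and 26.38 against 19.51 to 132.4, with 0 of 10 called and 1 at an unadjusted p under 0.05. In these 4 lists BAPN 1 and BAPN 2 lay above every vehicle library, though BAPN 2 only by little for B and plasma cells. BAPN 3 was the lowest BAPN library and lay within the vehicle range or, for T and NK cells, just above it. No marker of these lists was at 0 in all 7 libraries. Airway markers were high in vehicle 3, at a sum of 14690. Their part in the results for macrophages and matrix was not tested.

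Brown fat genes were lower with BAPN. Of 13 tested brown adipocyte markers, 5 fell (Elovl3, Ucp3, Otop1, S100b and Dio2) and none rose, and 10 did not overlap with BAPN lower. The median log2FC was -2.06, and it was -1.73 without BAPN 1. Their summed level was 669.6, 1412 and 3664 with BAPN and 7009 to 12040 with vehicle. BAPN 3 was highest and BAPN 1 lowest among BAPN libraries, and even BAPN 3 lay below every vehicle library.

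Elovl3 (ENSMUSG00000038754.6, chromosome 19, 46120336 to 46124133), an enzyme that lengthens very long fatty acids, stood at 0.072, 0.040 and 0.883 with BAPN. With vehicle it stood at 14.9, 27.2, 6.55 and 35.3. It was nearly gone from BAPN 1 and 2, and its log2FC was -3.87 ± 0.54 (limma's adjusted p = 0.0465), which the added 1 FPKM makes smaller than the ratio of means of 63.2. Ucp3, a mitochondrial carrier related to Ucp1, stood at 2.61, 12.3 and 12.1 against 65.6, 45.8, 54.8 and 86.4 (-2.87 ± 0.48). Otop1, a proton channel of brown fat, stood at 2.09, 6.72 and 12.1 against 45.8, 40.8, 31.0 and 56.4 (-2.68 ± 0.46). For both, the highest BAPN library was below the lowest vehicle library.

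Ucp1 itself, which makes heat by leaking protons into mitochondria and was chosen after its values were seen, did not pass. It stood at 20.7, 124 and 450.2 with BAPN and at 4204, 3025, 2215 and 4286 with vehicle. No library overlapped, yet the spread within BAPN was over an order of magnitude, and its log2FC was -4.95 ± 0.92. Cidea (-1.92 ± 0.54) and Cox7a1 (-2.33 ± 0.54), chosen in the same way, did not overlap and did not pass either. Prdm16, a transcription factor of brown fat identity, stood at 4.88, 4.73 and 3.58 against 5.13, 6.07, 4.15 and 3.5 and overlapped (-0.07 ± 0.18). Schwann cells also express S100b, and of 12 tested Schwann cell markers only S100b was called lower.

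Among adrenergic and thermogenic signalling genes 3 of 12 fell and none rose. Dio2, which activates thyroid hormone, stood at 5.10, 3.52 and 8.17 against 20.1, 23.1, 18.1 and 39.7 (log2FC -1.99 ± 0.33, limma's adjusted p = 0.0465). Adcy3, an adenylyl cyclase downstream of the beta-adrenergic receptors, stood at 5.58, 9.20 and 13.1 against 30.7, 39.0, 27.5 and 58.3 (-1.96 ± 0.33). Gk, the glycerol kinase, stood at 2.86, 4.29 and 10.9 against 48.2, 49.5, 43.9 and 76.9 (-3.12 ± 0.39, limma's adjusted p = 0.0401). All 3 genes had BAPN below vehicle without overlap. The receptor gene Adrb3 (-0.46 ± 0.23), chosen after its values were seen, overlapped and did not pass.

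Peroxisomes shorten very long fatty acids, and 5 of 24 tested peroxisome genes fell, with none rising, 16 without overlap and a median log2FC of -1.02. Ehhadh (ENSMUSG00000022853.8, chromosome 16, 21580037 to 21606557), a bifunctional enzyme of peroxisomes, stood at 4.97, 9.09 and 10.2 with BAPN. With vehicle it stood at 51.5, 44.9, 44.0 and 60.4. The groups were far apart, at 8.07 ± 2.74 (SD, n = 3) against 50.2 ± 7.61 (SD, n = 4), and the log2FC was -2.54 ± 0.23 (limma's adjusted p = 0.0306). Acaa1b, a peroxisomal thiolase, fell by 2.49 on the log2 scale (SE 0.43), although its near-identical copy Acaa1a may share reads with it. The transporter Abcd3 (-1.68 ± 0.30), the assembly factor Pex16 (-1.35 ± 0.25) and the thioesterase Acot8 (-0.71 ± 0.11) also fell.

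Other genes of fatty acid handling, among the 12 deepest falls under the naming rule, were Fabp3, Slc27a2 and Acot1. Fabp3, a fatty acid binding protein of oxidative tissue, stood at 29.3, 84.5 and 83.0 against 527, 305, 363 and 509 (log2FC -2.79 ± 0.41, limma's adjusted p = 0.0465). Slc27a2, which activates very long-chain fatty acids, stood at 4.01, 11.1 and 19.4 against 75.6, 65.6, 66.3 and 125 (-2.91 ± 0.47). In both the groups were apart, with BAPN 1 lowest. Acot1, a thioesterase that frees fatty acids from CoA, stood at 1.59, 2.01 and 4.00 against 15.8, 26.0, 20.9 and 20.4 (-2.66 ± 0.25, limma's adjusted p = 0.0306). The similar gene Acot2 (-1.56 ± 0.22) was the 1 called of 21 mitochondrial fatty acid oxidation genes, and the pair may share reads. Of those 21, 20 did not overlap with BAPN lower, and the median was -1.75.

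The mitochondrial lists were lower almost throughout but with few calls. Of 27 nuclear genes of oxidative phosphorylation all 27 did not overlap with BAPN lower, all 27 had an unadjusted p under 0.05, and 0 passed limma's adjusted threshold. Their log2FC ran from -1.74 to -1.02, with a median of -1.42. Of 20 TCA cycle genes 18 did not overlap with BAPN lower, all 20 had an unadjusted p under 0.05, 0 passed, and the median was -1.55. The median moved to -1.01 and -1.05 in these lists without BAPN 1. Without scaling it was -0.92 and -1.03, where the median of all genes was 0.426. Pdhb, a subunit of pyruvate dehydrogenase, gives the pattern at 72.7, 117 and 211 against 631, 408, 279 and 498 (-1.83 ± 0.41, limma's adjusted p = 0.0571). Its BAPN libraries were ordered as the brown fat markers were, with BAPN 1 lowest and BAPN 3 highest.

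Of 13 genes encoded in the mitochondrion, 2 fell and 9 did not overlap with BAPN lower, with a median of -1.24. mt-Co2, a subunit of cytochrome oxidase, stood at 3702, 3487 and 6210.1 against 16963, 13389.8, 11305 and 11991 (log2FC -1.62 ± 0.30, limma's adjusted p = 0.0495). mt-Nd3, a subunit of complex I, stood at 127, 206 and 227 against 852, 541, 632 and 889 (-1.97 ± 0.28). Both were apart between groups. Nuclear copies of mitochondrial genes may share reads with them. Of 28 cytosolic ribosomal protein genes 0 passed, 1 had an unadjusted p under 0.05, and the median was 0.00.

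Glucose and glycogen genes were lower in part. Of 19 glycogen and gluconeogenesis genes 2 fell. Gys2, a glycogen synthase best known from liver, stood at 2.14, 2.70 and 6.01 with BAPN and at 40.3, 36.1, 31.0 and 75.1 with vehicle. The groups differed 12.6-fold in means, and the log2FC was -3.34 ± 0.37 (limma's adjusted p = 0.0324). Fbp2, a fructose bisphosphatase of muscle, fell by 2.11 (SE 0.24). Of 22 glycolysis genes 2 fell, Gapdh and Pgk1, and 12 did not overlap with BAPN lower. Gapdh, often used as a reference gene, stood at 605, 527 and 629 against 1933, 1561, 1141 and 1676 (-1.40 ± 0.22, limma's adjusted p = 0.0465). Its BAPN libraries were close together and below all vehicle libraries, and processed copies of Gapdh may share its reads. The entry runs on chromosome 6 from 51396402 to 125143430 with no single strand, so it may hold more than the Gapdh locus.

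The other genes among the 12 deepest falls were Aspg, an asparaginase, and Gmpr, a reductase of guanine nucleotides. Aspg stood at 4.49, 8.06 and 23.8 against 99.9, 84.2, 44.6 and 116 (log2FC -2.94 ± 0.54), and Gmpr stood at 4.76, 9.28 and 13.4 against 79.2, 56.8, 51.6 and 108 (-2.92 ± 0.37). Neither overlapped between groups. Mgll, a lipase of stored fat, was the 1 called of 19 triglyceride and lipid droplet genes (-1.54 ± 0.27, limma's adjusted p = 0.0483). Hmgcs1 was the 1 called of 21 cholesterol synthesis genes (-1.21 ± 0.22), and that list's median was 0.04. H4c8 was the 1 called of 10 histone genes (-2.0 ± 0.29), and histone genes of near-identical sequence may share reads.

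**Figure D3:**
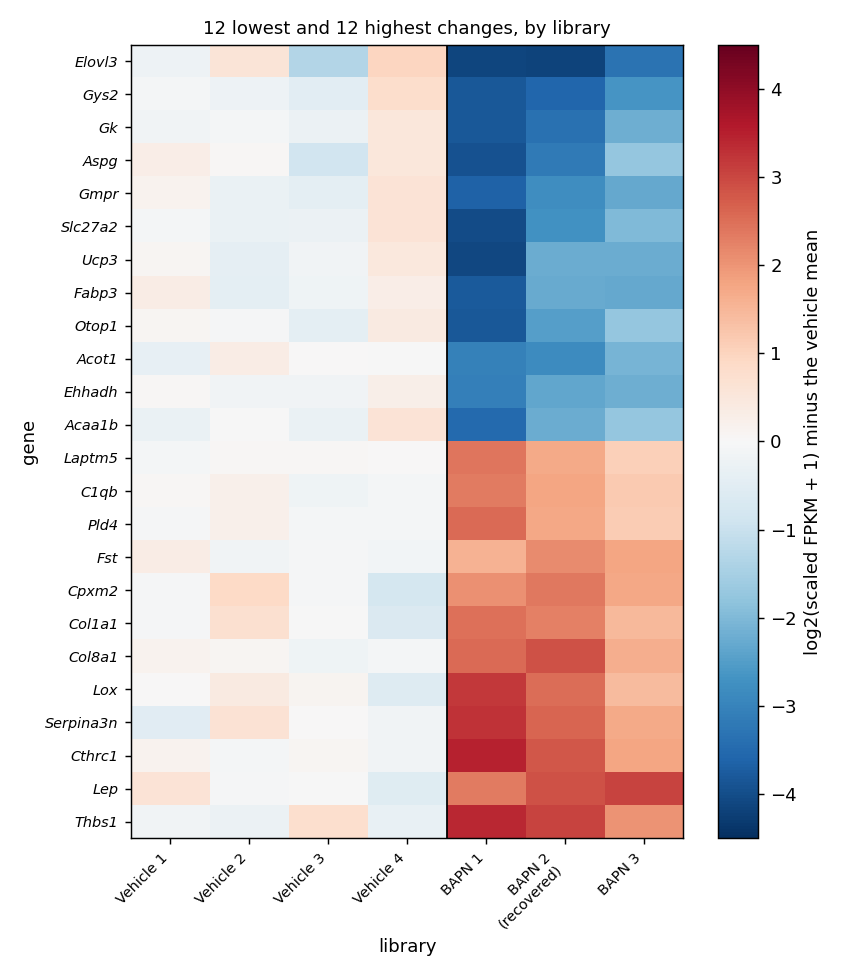
Level of the 12 genes with the lowest and the 12 with the highest log2 fold changes under the naming rule, as log2 of scaled FPKM plus 1 minus the vehicle mean, in each of 7 libraries. The genes were chosen by this difference. BAPN 3 is the palest BAPN library in most genes, with Lep, Fst, Fabp3 and Ucp3 as exceptions.

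Lep, the gene of the fat hormone leptin, rose. It lies on chromosome 6 at 29060219 to 29073876 and stood at 10.5, 15.4 and 17.6 with BAPN and at 2.42, 1.19, 1.23 and 0.529 with vehicle. The groups were far apart, with BAPN 3 highest here. The mean rose 10.8-fold, from 1.34 ± 0.786 (SD, n = 4) to 14.5 ± 3.64 (SD, n = 3), a log2FC of 2.76 ± 0.29 (limma's adjusted p = 0.0306). It was the 1 called of 19 general and white adipocyte markers, whose median log2FC was -0.86 and -0.37 without BAPN 1. Adipoq, for adiponectin, chosen after its values were seen, stood at 291, 574 and 707 against 587, 531, 634 and 879.8 and overlapped (-0.40 ± 0.34). Scd2, a fatty acid desaturase, rose (1.43 ± 0.25, limma's adjusted p = 0.0483), while Scd1, chosen after its values were seen, overlapped and did not pass (-0.95 ± 0.38).

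**Figure D4:**
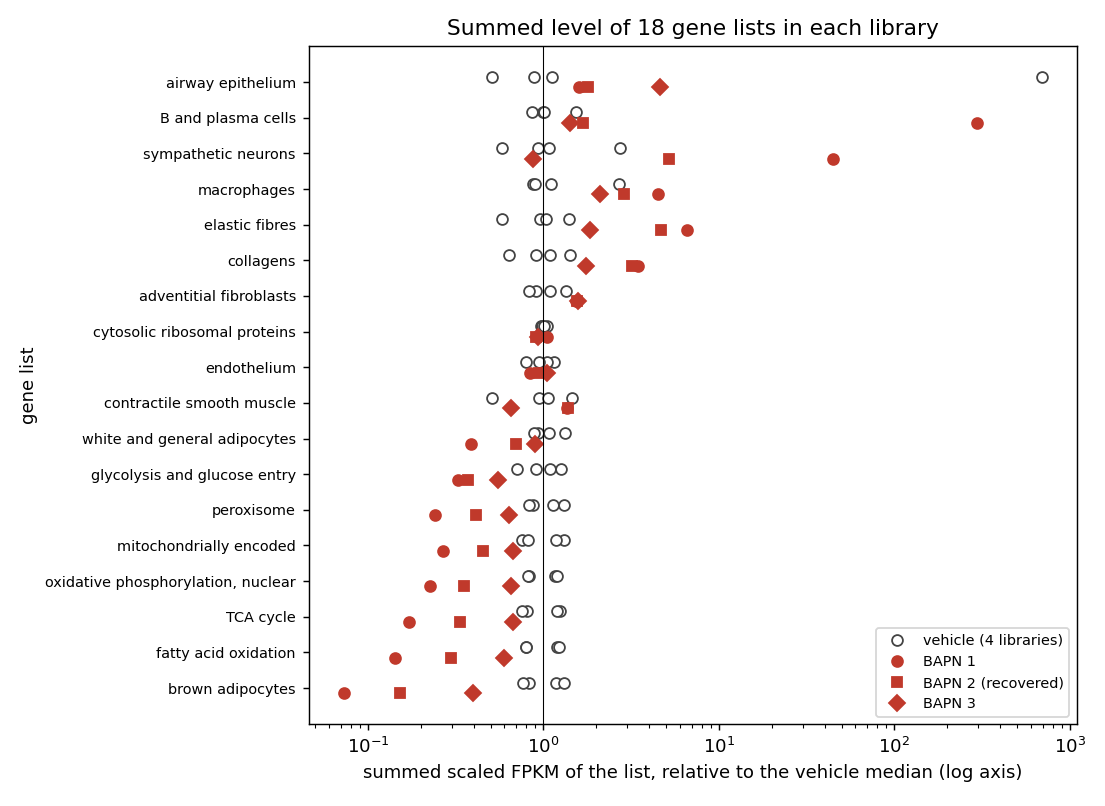
Summed scaled FPKM of 18 gene lists in each library, relative to the vehicle median (log axis), with vehicle as open circles and BAPN as filled symbols. BAPN lies below vehicle for the brown adipocyte and mitochondrial lists and above it for collagens and elastic fibres, while BAPN 1 and vehicle 3 stand far out for B and plasma cells and for airway epithelium.

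Single genes of other lists passed. Edn1 encodes the vasoconstrictor endothelin-1 and was the 1 called of 20 vasoactive genes, at 7.60, 5.89 and 6.16 against 2.55, 1.87, 1.76 and 1.23 (log2FC 1.42 ± 0.17, limma's adjusted p = 0.0401). Adm, for the vasodilator adrenomedullin, was the 1 called of 10 hypoxia genes, at 7.43, 6.93 and 7.61 against 2.50, 3.02, 3.98 and 1.67 (1.17 ± 0.20, limma's adjusted p = 0.0483). Both were tight within BAPN and apart from vehicle. Zfp36, which destabilises cytokine messages, was the 1 called of 22 immediate early genes (0.98 ± 0.16), and Cdk1 was the 1 called of 17 cell cycle genes (0.93 ± 0.17). In the lists for interferon response, antigen presentation, unfolded protein response, heat shock, oxidative stress, p53 and circadian clock, limma called 0 genes. At an unadjusted p under 0.05 were 2 of 20 interferon response and 9 of 14 antigen presentation genes. Unfolded protein response had 6 of 18, heat shock 2 of 15, and oxidative stress 12 of 19, of which 3 were higher and 9 lower. For p53 there were 5 of 16 and for circadian clock 1 of 18, beside 4123 of all 13101 genes.

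The BAPN effect was also read where fasudil was given, as BAPN with fasudil against fasudil alone, 3 libraries each, which shares no library with the comparison above. These values come from 1 limma fit of all 13 libraries. Of the 99 genes called higher with BAPN alone, 94 (94.9%) were also higher there, and of the 137 called lower, 125 (91.2%) were also lower. Over all tested genes 51.7% were higher and 48.2% lower. Their median log2FC there was 0.63 and -0.70. Because the 236 genes were chosen by their change without fasudil, these medians are not comparable in size with those above. Limma called 11 genes higher (0.084%) and 6 lower (0.0458%) with fasudil, and 4 of these had been called in the same direction without it, which were Thbs1 higher and Fam131c, Gm12751 and Rap1gap lower. The last 3 were chosen after their values were seen.

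Thbs1 stood at 3.36, 2.14 and 2.77 with fasudil and at 17.5, 14 and 27.1 with both agents, a log2FC of 2.41 ± 0.38 (limma's adjusted p = 0.0445). The groups were again apart. Elovl3 stood at 23.5, 55.4 and 3.7 with fasudil and at 0.398, 0.199 and 0.297 with both (-3.85 ± 0.79), and this change did not pass. Lep stood at 11.7, 7.96 and 2.90 with fasudil and at 6.27, 6.44 and 11.7 with both (0.21 ± 0.42), overlapping. The difference between its BAPN effects was 2.57 ± 0.57, which did not pass (limma's adjusted p = 0.681). The summed brown adipocyte markers were 4199 to 8879 with fasudil and 2140 to 2668 with both, without overlap. Macrophage markers summed to 222.1 to 378.1 with fasudil and 522.7 to 1420 with both, also without overlap. The matrix lists overlapped except that of proteases and inhibitors, at 587.7 to 836.8 with fasudil and 885.7 to 1426 with both. Collagens stood at 253.5 to 1533 against 1053 to 3091, and elastic fibres at 461.9 to 2526 against 981.6 to 6702. Mitochondrially encoded genes overlapped, at 169400 to 331100 with fasudil against 128600 to 203000 with both. Nuclear genes of oxidative phosphorylation did not overlap, at 12600 to 19630 against 9393 to 10680. Neither did the TCA cycle list, at 5632 to 9856 against 3677 to 5148. Fatty acid oxidation genes were also apart, at 5026 to 8970 against 3342 to 4379.

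The test of the difference itself called 1 of 13101 genes (0.00763%), and 816 had an unadjusted p under 0.05.

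**Figure D5:**
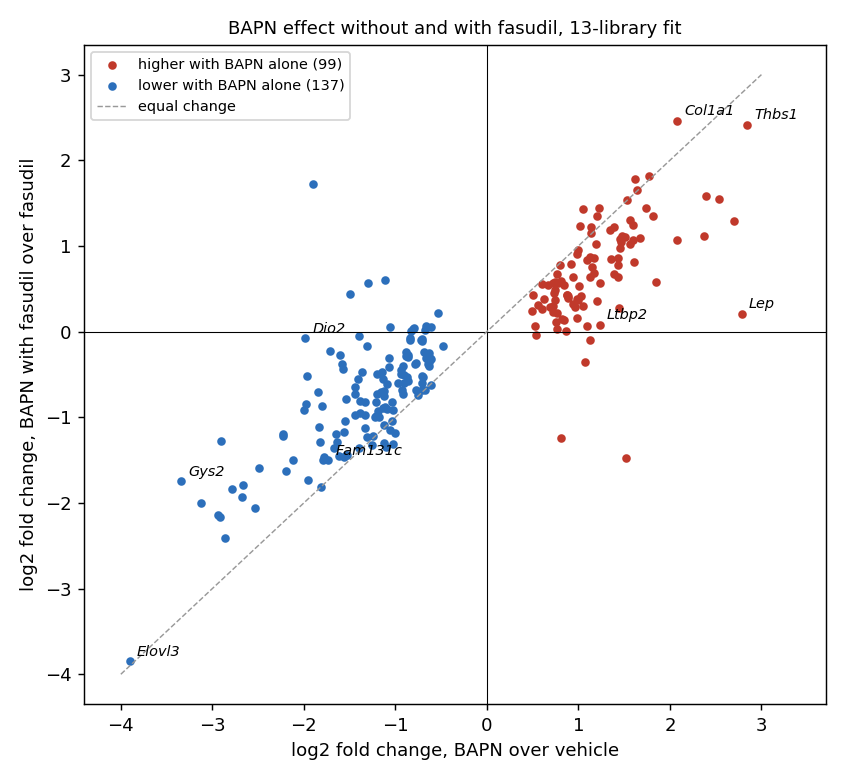
Log2 fold change of BAPN over vehicle (x axis) against that of BAPN with fasudil over fasudil (y axis) for the 236 called genes, which were chosen by the x axis. Most points lie in the quadrants of equal sign, and Thbs1, Elovl3 and Lep are among those labelled.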

How the data were processed

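RNA from whole mouse aorta was sequenced. Values are FPKM computed by the authors, to 2 decimals, although the deposited title says counts. Tools listed in the submitters' processing notes are RSEM, Bowtie2 and DESeq2, with no version or role, and the listed builds are mm10 and GRCm39. Of 28350 genes also in GENCODE M21 (GRCm38), 2.53% share their start, so coordinates are as in the table, in GRCm39. Another deposited column, transcript length in bases (unit: other), served only for the depth estimate. The table has 36082 rows, 7572 of them without values. The authors' deposited BAPN mean served only to recover BAPN replicate 2, and in that recovered library 57.7% of low values lay within 0.1 of whole reads, near the 56.3% to 62.1% of the other libraries.

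FPKM were scaled by an unweighted trimmed mean of log ratios (30% of ratios and 5% of levels trimmed at each end). Log2(scaled FPKM + 1) was tested with limma 3.58.1 in R 4.3.3 (trend, robust prior, two-sided), with Benjamini-Hochberg adjustment over all genes and a threshold of 0.05. A fold change on this scale understates that of low genes. No counts were in the table, so no count test was run. The study's strand setting is not given in the sources used here, so overlapping antisense genes cannot be told apart.

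The members and lists were chosen with earlier results of these data known. Named by rule were the 12 highest and 12 lowest log2 fold changes among called genes with a mean of at least 5 scaled FPKM in the higher group, no overlap, and no predicted-gene or immunoglobulin segment symbol. The rule also takes up to 4 called members of each list, or the 2 with the smallest p, and always the lysyl oxidase genes, Eln, Col1a1, Col3a1, Rock1 and Rock2. Genes of the list counts, and those said to be chosen after their values were seen, fall outside it. Alternatives were other pseudocounts, filters, scalings, fits and left-out libraries. Results of some single genes are not reported here.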

Additional observations from a re-analysis of the deposited data

Results flagged for a closer look

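Among the 117 named genes, the highest or lowest of the 4 vehicle libraries stood far from the other 3 (Dixon's 95% limit) in 14 genes. Chance alone gives such a library in about 1 of 20 groups of normally distributed values. The named genes are not independent of each other, so the 14 cannot be set against that rate. In 4 genes of the report's named falls and rises, it was a high library, with Gk at 76.9, Slc27a2 at 125, Pld4 at 4.90 and Thbs1 at 3.27 scaled FPKM. In Ccl9 it was a low library, at 3.02. Other high libraries were Ltf at 852, Scgb3a1 at 645 and Muc16 at 14.2, all in vehicle 3 and in genes that did not pass. The rest, which did not pass either, were Cd3e at 0.709, Cxcl13 at 1.90, Hlf at 18.2, Hspe1 at 193, Myl2 at 0.240 and Nkg7 at 1.39.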

How the results depend on the processing

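The counts of genes called higher and lower were 99 and 137. They were 158 and 221 with a pseudocount of 0.1, 217 and 447 with at least 1 FPKM in all 7 libraries, 3869 and 387 without scaling, 316 and 751 with all 4 groups in 1 fit, and 195 and 267 without trend and robust prior. Limma called 0 and 0 without a filter (4665 genes at an unadjusted p under 0.05), with array quality weights (2964), with the deposited BAPN libraries only (2551), and with those in 1 fit of all 4 groups (2667). Leaving out 1 library gave 0 to 1394 higher and 0 to 1922 lower calls. A pseudocount of 0.5 and median-of-ratios scaling kept both counts within 1.5 times. With a replicate block the counts were 0 and 0 (1879 at an unadjusted p under 0.05), and the difference between BAPN effects had 0 calls. Deviations of same-numbered BAPN and vehicle libraries from their group means correlated at -0.156, 0.2 and -0.214, and those of other pairs at -0.363 to 0.451. These values cannot show whether same-numbered libraries share a batch, and that was not tested. Leaving out 1 of the 13 libraries gave 1 to 3 calls for that difference.

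Without scaling, 7 uncalled named genes turned sign, to 0.19 for Rpl19, 0.03 for Srxn1, 0.27 for Bpgm, 0.19 for Rps2, 0.04 for Emcn, 0.07 for Uty and 0.32 for Ddx3y. Relative to the shift of all genes of 0.426 each stayed below 0. List medians moved up without scaling as well. They went from -1.24 to -0.72 for mitochondrially encoded genes, from 0.29 to 0.78 for contractile smooth muscle and from 0.00 to 0.52 for cytosolic ribosomal proteins. Over libraries left out in turn, Ltf ranged from -3.03 to 0.13 and Scgb3a1 from -2.65 to 0.31, above 0 only without vehicle 3, and neither was called. The cause of the other changes was not tested.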
